A study of Homo sapiens with 12 samples.

Results

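Most of the genes described here code for histones, the proteins that package DNA into nucleosomes, as measured in 12 mRNA libraries of MDA-MB-231 cells. Members were the gene symbols that begin with HIST1H to HIST4H, H2AF, H1F or H3F3 and that had a normalized value of at least 10 in 3 or more of the 12 libraries. Of 55 such symbols 41 qualified, among 15957 genes that passed the same filter and 19907 genes in all. They comprised 29 replication-dependent histone genes (symbols beginning with HIST, with H1 2, H2A 8, H2B 11, H3 4 and H4 4) and 12 replication-independent genes. Not coding were 2 of the former, the pseudogenes HIST2H2BA and HIST2H2BC. Among the latter 2 were not coding, the pseudogene H3F3AP4 and the non-coding RNA H1FX-AS1. MDA-MB-231 is an established human triple-negative breast cancer line, and its cells differed in their glucocorticoid receptor, which was wild type (WT-GR) or had the S134A change of a serine to alanine (S134A-GR). All groups were starved for 18 h in IMEM with 1% DCC, then received vehicle or 1 µM Dex (dexamethasone, a synthetic glucocorticoid) for 6 h. Each of the 4 groups (WT-GR vehicle, WT-GR Dex, S134A-GR vehicle, S134A-GR Dex) had 3 libraries. The labels do not say how either line was derived, whether it is a clone, or whether the 3 libraries came from separate cultures. The receptor change and any other difference between the lines cannot be told apart, and the spread behind the p-values may be technical, since it is that between these libraries alone.

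Replication-dependent histone genes lie in clusters, lack introns and are transcribed mainly in S phase, when new DNA needs histones. Their mRNAs normally end in a short stem-loop that binds SLBP instead of a poly(A) tail, so poly(A)-based libraries capture them poorly unless a polyadenylated form is made at a site downstream. Replication-independent genes code for variants such as H2A.Z, H3.3 and H1.0, are expressed through the cell cycle and give ordinary polyadenylated mRNAs. The labels name a TruSeq RNA kit and mRNA libraries. Such preparations usually select poly(A) tails, but the labels do not state how mRNA was selected; with that selection, the values of replication-dependent genes would not be their total RNA.

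The stem-loop was looked for in the GENCODE 29 transcript models (GRCh38) as the 16 letters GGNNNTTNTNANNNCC, with the first 6 and last 6 bases pairing and G-U pairs allowed. It was present in 13 of the 29 replication-dependent members and in 223 of 83129 coding transcripts, or 0.268%. Members were counted as genes, with a match in any model of any type, so these counts are in unlike units. For 11 of the 29 members the longest model is about the coding sequence or shorter, as is the only model of HIST1H1C (642 bases), so a stem-loop beyond these could not be found. In 10 of the 13 members, a model runs more than 100 bases past the stem-loop. Sites of members that the results below turn on are shown 5′ to 3′, with the stem-loop in capitals:
HIST2H2BE: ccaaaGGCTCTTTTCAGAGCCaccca
HIST2H2BC: ccaaaGGCTCTTTTCAGGGCCattta
HIST1H2BD: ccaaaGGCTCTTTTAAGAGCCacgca
HIST1H2AC: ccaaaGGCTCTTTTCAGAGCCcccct
HIST1H4H: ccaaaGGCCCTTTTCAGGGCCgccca
HIST4H4: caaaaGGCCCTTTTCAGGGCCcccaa
H2AFX: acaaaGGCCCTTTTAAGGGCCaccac
These are chr1:149886183-149886208 (minus strand), chr1:149850297-149850322 (minus), chr6:26158582-26158607 (plus), chr6:26124664-26124689 (plus), chr6:26285126-26285151 (minus), chr12:14770719-14770744 (minus) and chr11:119094893-119094918 (minus), in that order. The HIST2H2BE model continues 1729 bases past its stem-loop, and 1 of the HIST2H2BC models, a transcribed pseudogene, 5804 bases. H2AFX, the DNA damage variant H2A.X, was the only replication-independent member with the stem-loop, and its longest model runs 1044 bases past it.

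HIST2H2BE, an H2B gene, and HIST2H2AC, an H2A gene, face away from each other on chromosome 1 with start sites 236 bases apart. Their promoters are shown because both genes were higher in S134A-GR cells with vehicle. Both are 300-base windows from RefSeq (GRCh38.p14), chr1:149886633-149886932 on the minus strand and chr1:149886668-149886967 on the plus strand, and they share 265 bases. Capitals mark matches, on either strand, to CCAAT (bound by NF-Y), TATAAA (the TATA box) and ATTTGCAT (the octamer bound by OCT1):
HIST2H2BE: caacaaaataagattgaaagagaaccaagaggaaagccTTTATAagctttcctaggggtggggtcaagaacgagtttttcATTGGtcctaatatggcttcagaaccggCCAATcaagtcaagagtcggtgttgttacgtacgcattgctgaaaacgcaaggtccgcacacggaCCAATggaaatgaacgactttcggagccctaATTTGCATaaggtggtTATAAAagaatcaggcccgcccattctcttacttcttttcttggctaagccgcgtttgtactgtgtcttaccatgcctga
HIST2H2AC: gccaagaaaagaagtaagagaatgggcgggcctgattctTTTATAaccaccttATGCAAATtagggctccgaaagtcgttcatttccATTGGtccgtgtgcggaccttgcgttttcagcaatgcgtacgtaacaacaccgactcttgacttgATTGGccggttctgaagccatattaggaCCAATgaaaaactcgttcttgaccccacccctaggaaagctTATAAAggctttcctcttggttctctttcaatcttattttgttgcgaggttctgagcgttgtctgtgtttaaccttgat
Each window held 6 matches. RefSeq promoters were matched for 33 of the 41 members. CCAAT was found in 84.8% of them against 34.6% of all 35116 promoters in the RefSeq table, and TATAAA in 69.7% against 11.5%. The octamer was found in 68.8% of the 16 promoters of replication-dependent H2A and H2B members and in 1.77% of all promoters. AGAACA, the core of the glucocorticoid receptor's element, was found in 15.2% of member promoters and 14.8% of all. None of these matches overlapped another motif searched in the pair of windows shown. Promoters of neighbours that face away from each other can share bases, so the members' matches are not independent.

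**Figure D1:**
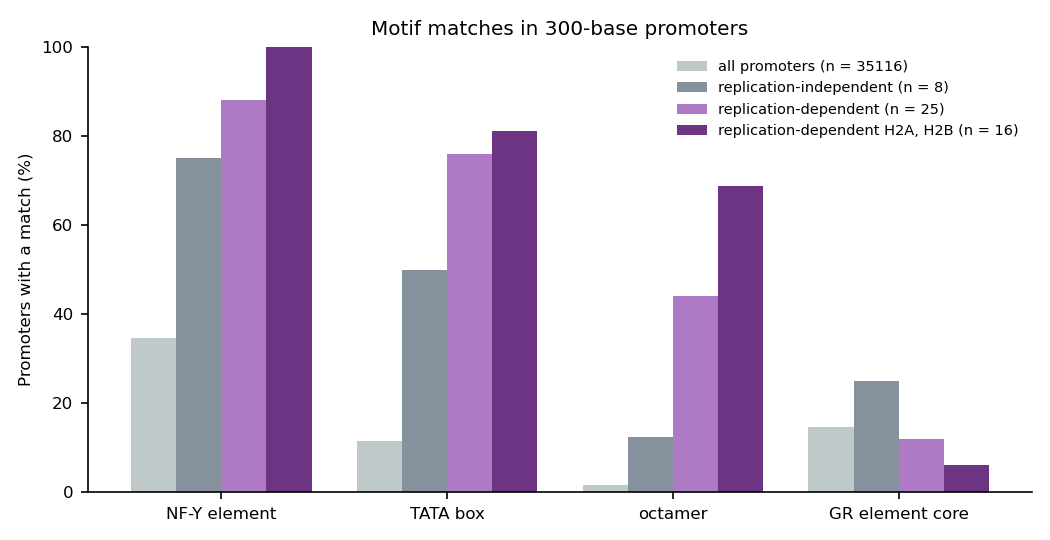
Percentage of 300-base promoters with at least 1 match to each motif (vertical axis) for all promoters and 3 sets of members, with the number of promoters in the key. The octamer separates the replication-dependent H2A and H2B members (68.8%) from all promoters (1.77%), while the receptor element core is at 15.2% of all members and 14.8% of all promoters.

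The recovered depth ran from 56.4 to 100.6 M reads per library. WT-GR Dex replicates 2 and 3 stood apart, with 193 and 210 genes at 1 read against 352 to 409 in the other libraries of the series. The mesenchymal markers VIM, CD44, SPARC, AXL and ZEB1 were all present, the summed level of the 3 markers found for other cell types was 1089 to 2798, almost all of it the endothelial marker PECAM1, and the leukocyte marker PTPRC and hepatocyte marker ALB averaged under 10 in every group, as did ESR1. PECAM1 rose with Dex, by log2 0.90 in cells with WT-GR and 0.83 with S134A-GR. KRT8, ERBB2 and EPCAM, listed as low in this line, were present. Between S134A-GR and WT-GR vehicle cells ERBB2 was higher by log2 0.24 and EPCAM differed by -1.44. Of the 6 markers listed as low, 4 were tested. In S134A-GR against WT-GR cells 1 was higher and 1 lower in vehicle. In Dex 0 were higher and 3 lower (median log2 -0.83), beside 23.4% and 26.3% of all genes. With Dex, 2 rose in WT-GR cells and 0 in S134A-GR cells. The part of any of these markers in the histone results was not tested. Of 13 testis histone symbols 4 were found, and H3F3C alone passed the filter. RNAs known to lack a poly(A) tail (20 found, among them RN7SK, RN7SL1 and RMRP) summed to 1568 to 2938 in WT-GR vehicle, 2140 to 6173 in WT-GR Dex libraries, while the S134A-GR libraries held 1619 to 2082 (vehicle) or 1785 to 2155 (Dex). Their highest sum was in the WT-GR Dex group, and the part that carry-over of such RNA has in the members' values was not tested.

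Replication-independent genes dominated the histone signal. Per kilobase of GENCODE exon length, the median value was 6184 for the 10 coding replication-independent members and 52.2 for the 27 coding replication-dependent members. On the value scale, which grows with transcript length, replication-dependent members made up 4.40 to 5.06% of the summed values of all members in each library. HIST1H2BK, an H2B gene, supplied 42.6 to 51.9% of the replication-dependent sum and HIST1H1C, the linker histone H1.2, 22.7 to 39.8%. Of the other replication-dependent members, 23 averaged under 100 over the 12 libraries. All 14 symbols that missed the threshold were replication-dependent. By the third highest value, the member nearest above the threshold was the pseudogene HIST2H2BA at 10.2 and the nearest below were HIST1H3J at 9.51 and HIST1H2AB at 9.12. The coding sequences of clustered histone genes are near-identical, and how reads that match several copies were counted is not given, so values of single copies are uncertain. HIST1H2BN's model also spans HIST1H2AK on the other strand. There were 26 members at 10 or more in every library, 3 members (HIST1H2AJ, HIST1H2AK, HIST2H2BC) that reached 3 such libraries in S134A-GR cells only, and 3 (HIST1H2AH, HIST1H4C, HIST1H4K) in WT-GR cells only.

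**Figure D2:**
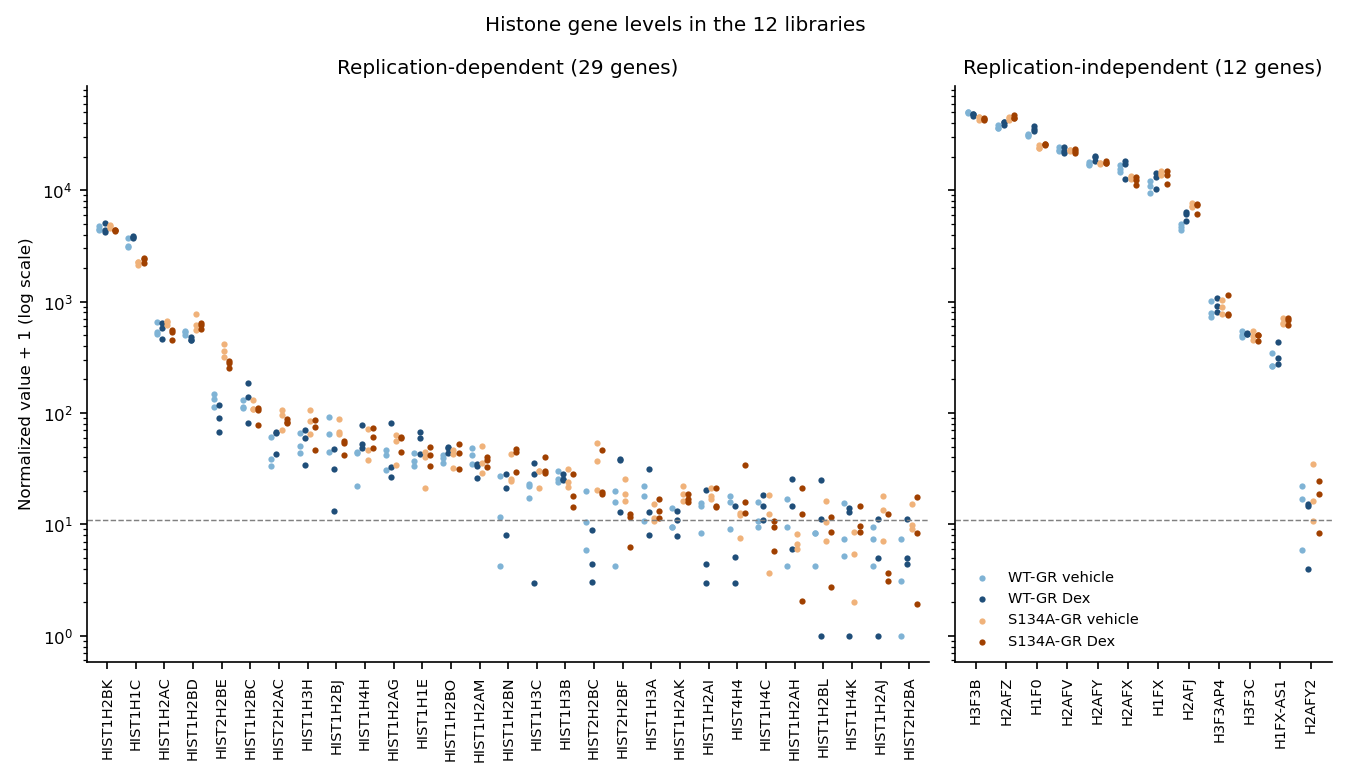
Normalized value plus 1 on a log axis for each member (horizontal axis, ordered by mean) in the 12 libraries, coloured by group; the dashed line marks the threshold of 10. The replication-dependent genes drop from HIST1H2BK, with a mean of 4547, to 23 genes under 100, and their median mean is 25.2 beside 13497 for the replication-independent genes.

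The first question was whether cells with the S134A receptor differed from wild-type receptor cells without ligand. In vehicle, 8 of 41 members were higher and 3 lower in S134A-GR cells by limma at an adjusted p under 0.05. That was 26.8% of the members against 50.5% of all 15957 genes, with 23.8% of all genes higher and 26.7% lower. The difference of these shares was not tested. Of the 37 coding members 6 were higher and 3 lower, or 24.3%. The groups did not overlap for 11 members above and 4 below, against 31.5% and 32.7% of all genes. Fold changes are on the log2(value + 1) scale, which understates changes of low genes. Of the 29 replication-dependent members 4 were higher and 1 lower, or 17.2%, and of the 12 replication-independent members 4 were higher and 2 lower. The median log2 difference was 0.30 for the former and 0.05 for the latter, beside 0.01 over all genes. The 4 higher replication-dependent members include HIST2H2BC, which passed the filter through S134A-GR cells only. The replication-dependent median also includes HIST1H2AJ and HIST1H2AK, which entered the same way. HIST1H2AH, HIST1H4C and HIST1H4K, also in it, entered through WT-GR cells only.

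The 2 called members with the largest differences in vehicle, HIST2H2BC and HIST2H2BE, lie on chromosome 1. HIST2H2BE (chr1:149884459-149886652, minus strand) had values of 133.6, 113 and 146 in WT-GR vehicle libraries and 415, 361 and 315 in S134A-GR vehicle libraries. The groups were far apart, and S134A-GR cells were 2.76-fold higher (log2 1.46 ± 0.19 SE, adjusted p = 3.27e-05). In Dex it measured 118, 88.8 and 66.1 in WT-GR and 293, 255 and 278 in S134A-GR cells, with log2 1.62 ± 0.19 (adjusted p = 1.39e-05). Every S134A-GR library exceeded every WT-GR library. Without WT-GR Dex replicates 2 and 3 the Dex difference was 1.21 (adjusted p = 0.000436); the remaining WT-GR Dex library is then assumed to vary like the other groups.

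HIST2H2AC, the neighbour across the shared promoter, had 60.3, 32.8 and 37.9 in WT-GR vehicle and 68.8, 104 and 95.3 in S134A-GR vehicle libraries. The groups did not overlap, and the difference was log2 1.05 ± 0.27 (adjusted p = 0.00528). In Dex it stood at 64.9, 65.9 and 41.7 against 86.6, 81.4 and 81.0, which again did not overlap, but at log2 0.55 ± 0.27 the test was missed (adjusted p = 0.104). Without WT-GR Dex replicates 2 and 3 it was 0.35 (adjusted p = 0.432).

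HIST2H2BC, an H2B pseudogene of the same cluster, was scarce in WT-GR cells (4.89, 19.0 and 9.48 in vehicle; 3.41, 7.99 and 2.03 in Dex) while S134A-GR libraries held 35.8, 19.3 and 52.6 with vehicle, then 45.4, 18.4 and 17.9 with Dex. It reached 10 in 6 of 6 S134A-GR libraries and 1 of 6 WT-GR libraries, so it entered through the group where it is high. The differences were log2 1.67 ± 0.59 in vehicle (adjusted p = 0.031) and 2.38 ± 0.59 in Dex (adjusted p = 0.00454), or 2.54 in Dex without the same 2 libraries (adjusted p = 0.0177). The vehicle call rested on a narrow gap of 19.0 against 19.3, and it was lost without WT-GR vehicle replicate 1 (log2 1.24, adjusted p = 0.125) or 3 or S134A-GR vehicle replicate 1 or 3.

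HIST2H2BF, also an H2B gene of this cluster, had 11.95, 37.9 and 36.6 in WT-GR Dex and 10.6, 5.25 and 11.3 in S134A-GR Dex libraries, with a log2 difference of -1.47 ± 0.61 (adjusted p = 0.0589). The groups did not overlap, but without WT-GR Dex replicates 2 and 3, the higher WT-GR libraries, the difference was -0.43 (adjusted p = 0.687). In vehicle it was 0.84 (95% interval -0.47 to 2.15). The pseudogene HIST2H2BA, on chromosome 1 outside this cluster and near the detection limit, differed by 1.97 in vehicle (adjusted p = 0.079). Of the 23 replication-dependent members on chromosome 6, 1 was higher and 1 lower in each treatment, against 50.5% of all genes called in vehicle and 49.7% in Dex. Most of these chromosome 6 members averaged under 100. At that level 8.7% of all replication-dependent members were called in each treatment, so the shares compare genes of unlike levels. Among 31 non-histone genes tested within 1 Mb of the chromosome 1 cluster, 11 were higher and 3 lower in vehicle (median log2 0.11), beside 23.8% higher, 26.7% lower and a median of 0.01 over all genes. In Dex 9 were higher and 3 lower (median 0.15), beside 23.4%, 26.3% and 0.01. Single neighbours ran from log2 -2.01 (CTSS) to 1.70 (BOLA1) in vehicle and from -1.86 (CTSS) to 2.98 (MIR4257) in Dex. MIR4257 lies wholly within ADAMTSL4, which differed by 1.54 in Dex, so it is not a separate neighbour. Differences as large as that of HIST2H2BE were therefore also found among non-histone genes nearby.

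**Figure D3:**
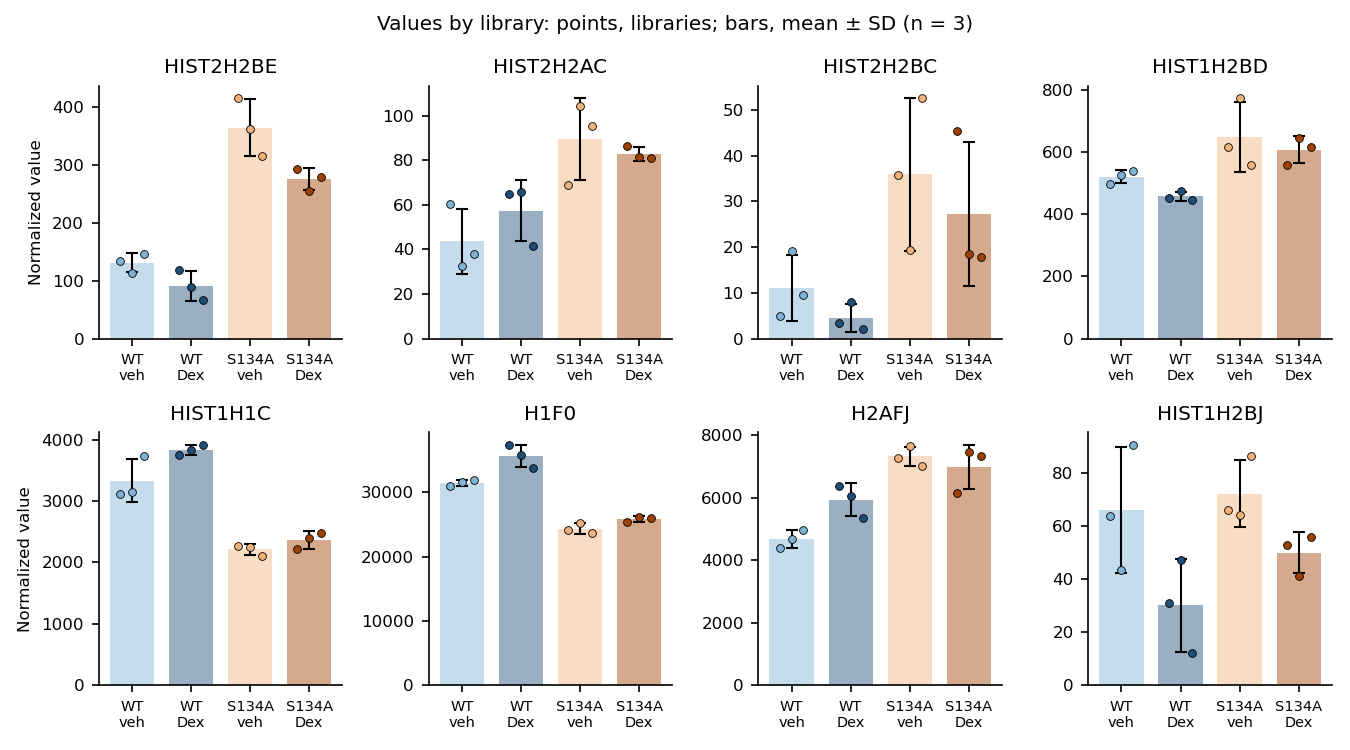
Normalized value (vertical axis, starting at 0) of 8 members in each library; points are libraries, bars group means and error bars SD (n = 3). HIST2H2BE in S134A-GR cells lies at 255 or above against at most 146 in WT-GR cells, while HIST1H1C and H1F0 are lower in all S134A-GR libraries.

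On chromosome 6, HIST1H2BD was the only replication-dependent member that was higher in both treatments. It measured 499, 527 and 539 in WT-GR and 617, 775 and 559 in S134A-GR vehicle libraries, then 452, 475 and 447 against 561, 647 and 618 in Dex. The groups did not overlap in either treatment. The log2 differences were 0.30 ± 0.11 (adjusted p = 0.0365) and 0.41 ± 0.11 (adjusted p = 0.00851), and the vehicle call was lost without S134A-GR vehicle replicate 2 (log2 0.17, adjusted p = 0.187) or 1, or any WT-GR vehicle library. HIST1H2BK, the most abundant replication-dependent transcript by value, lay between 4194 and 5075 in all 12 libraries. Its log2 difference was 0.06 in vehicle (95% interval -0.08 to 0.20) and -0.06 in Dex (-0.20 to 0.08).

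The most abundant H2A, H3 and H4 genes of the replication-dependent kind overlapped between genotypes in vehicle. HIST1H2AC (H2A) differed by log2 0.18 (95% interval -0.10 to 0.47), HIST1H3H (H3) by 0.67 (-0.02 to 1.37) and HIST1H4H (H4) by 0.51 (-0.22 to 1.24). None of these passed the test, and the intervals of the H3 and H4 genes are wide. HIST4H4, an H4 gene on chromosome 12, measured 13.7, 2.00 and 4.07 in WT-GR Dex and 11.6, 14.9 and 33.0 in S134A-GR Dex libraries. The groups overlapped, and the call in Dex (log2 1.64 ± 0.61, adjusted p = 0.0376) was lost without WT-GR Dex replicates 2 and 3, the libraries that stand apart (log2 0.37, adjusted p = 0.665), without either of them alone, and without S134A-GR Dex replicate 2 or 3.

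Of the linker histones, which bind the DNA between nucleosomes, HIST1H1C and H1F0 were lower in S134A-GR cells with vehicle and with Dex. HIST1H1C measured 3107, 3151 and 3735 in WT-GR vehicle and 2268, 2247 and 2110 in S134A-GR vehicle libraries, and 3747, 3831 and 3919 against 2212, 2393 and 2485 in Dex. Every S134A-GR library lay below every WT-GR library. The log2 differences were -0.59 ± 0.07 (adjusted p = 1.61e-05) and -0.70 ± 0.07 (adjusted p = 3.62e-06). H1F0, the replication-independent H1.0 of slowly dividing and differentiated cells, measured 30934, 31536 and 31863 against 24164, 25232 and 23697 in vehicle. In Dex it measured 37394, 35742 and 33837 against 25335, 26190 and 25926. These groups did not overlap either, with log2 -0.37 ± 0.04 (adjusted p = 1.06e-05) and -0.46 ± 0.04 (adjusted p = 1.39e-06).

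H1FX, the variant H1.10, went the other way in vehicle. Its values were 9519, 10885 and 12188 in WT-GR and 14317, 14895 and 13606 in S134A-GR vehicle libraries, without overlap (log2 0.40 ± 0.12, adjusted p = 0.0155). The call was lost without WT-GR vehicle replicate 1 (log2 0.31, adjusted p = 0.0725) or S134A-GR vehicle replicate 2, and in Dex the difference was 0.09 (95% interval -0.18 to 0.35). H1FX-AS1, a long non-coding RNA that is not a histone but matched the symbol rule, lies on the opposite strand and overlaps H1FX by 886 bases. It measured 264, 265 and 341 in WT-GR and 714, 647 and 626 in S134A-GR vehicle libraries, then 309, 434 and 273 against 618, 677 and 708 in Dex. The groups were well apart, with log2 1.20 ± 0.16 (adjusted p = 2.98e-05) and 1.00 ± 0.16 (adjusted p = 0.000137). Whether counting used strand is not given in the sources used here, so reads of H1FX and its antisense RNA cannot be told apart over the overlap.

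Among H2A variants, H2AFJ (H2A.J) measured 4403, 4667 and 4975 in WT-GR and 7277, 7655 and 7019 in S134A-GR vehicle libraries. The vehicle groups were clearly separate, 1.56-fold (log2 0.65 ± 0.08, adjusted p = 2.14e-05). In Dex the groups overlapped (6378, 6056 and 5343 against 6152, 7453 and 7337), and log2 0.23 ± 0.08 (adjusted p = 0.0278) was lost without WT-GR Dex replicates 2 and 3 (log2 0.12, adjusted p = 0.349), without replicate 3 alone, and without S134A-GR Dex replicate 2 or 3. H2AFZ, which codes for the promoter-associated H2A.Z.1, averaged 37027 ± 1404 (SD, n = 3) in WT-GR and 44294 ± 1042 in S134A-GR vehicle libraries. It was higher in both treatments, by log2 0.26 ± 0.04 (adjusted p = 0.000227) and 0.18 ± 0.04 (adjusted p = 0.0041). H2AFV, the gene of the closely related H2A.Z.2, differed by -0.03 (95% interval -0.14 to 0.08) and -0.02 (-0.13 to 0.09).

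H2AFX had 14502, 15442 and 16939 in WT-GR and 13555, 13076 and 12695 in S134A-GR vehicle libraries. They did not overlap but missed the test (log2 -0.25 ± 0.11, adjusted p = 0.0763). In Dex it passed at log2 -0.38 ± 0.11 (adjusted p = 0.0127) although WT-GR Dex replicate 3, at 12550, lay inside the S134A-GR range, and the call was lost without WT-GR Dex replicate 1 (log2 -0.27, adjusted p = 0.0616) or 2, or S134A-GR Dex replicate 1. H2AFY, the macroH2A1 gene linked to repressed chromatin, was lower in Dex by log2 -0.14 ± 0.05 (adjusted p = 0.0193) and not called in vehicle (log2 0.01). Library-size scaling ended the Dex call (log2 -0.03, adjusted p = 0.649), as did leaving out WT-GR Dex replicate 1 or 2 or S134A-GR Dex replicate 1 or 3. H2AFY2 (macroH2A2) averaged 15.0 over the 12 libraries, too low for a narrow interval (log2 0.49 in vehicle, -0.99 to 1.98).

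H3F3B, which codes for H3.3, was slightly lower in S134A-GR cells. It averaged 49931 ± 362 in WT-GR and 44461 ± 1724 in S134A-GR vehicle libraries, a log2 difference of -0.17 ± 0.04 (adjusted p = 0.00219), and differed by -0.13 ± 0.04 in Dex (adjusted p = 0.0115). Both calls were lost when edgeR scaled reads by library size only, and the Dex call without S134A-GR Dex replicate 3 (adjusted p = 0.0501). That scaling moved the median of all genes to 0.11 in Dex and put H3F3B at -0.01, below that median. H3F3C and the processed pseudogene H3F3AP4 are near-identical copies of H3.3 sequence, so their reads are uncertain. The symbol H3F3A, the other H3.3 gene, was not among the 55 that matched the rule, so it has no value here. H3F3C and H3F3AP4 differed by -0.03 and 0.10 in vehicle, and neither passed the test.

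With Dex present in both genotypes, 7 of 41 members were higher and 5 lower in S134A-GR cells, 29.3% against 49.7% of all genes (23.4% higher, 26.3% lower). The groups did not overlap for 8 members above and 7 below, against 25.3% and 27.1% of all genes. Of the 41, 9 passed in the same direction in both treatments, or 22.0% against 36.7% of all genes tested. Of these, 6 were higher, among them HIST2H2BC, which passed the filter through S134A-GR cells only, and 3 were lower. The treatments' libraries are separate, but they come from the same lines, and both comparisons used 1 fit with a shared estimate of the spread. The calls in vehicle and in Dex are therefore not independent. With only the groups compared, H2AFJ, H2AFY and HIST4H4 lost their calls in Dex. In vehicle HIST1H2BD lost its call, while H2AFX and HIST1H3H were called in addition.

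**Figure D4:**
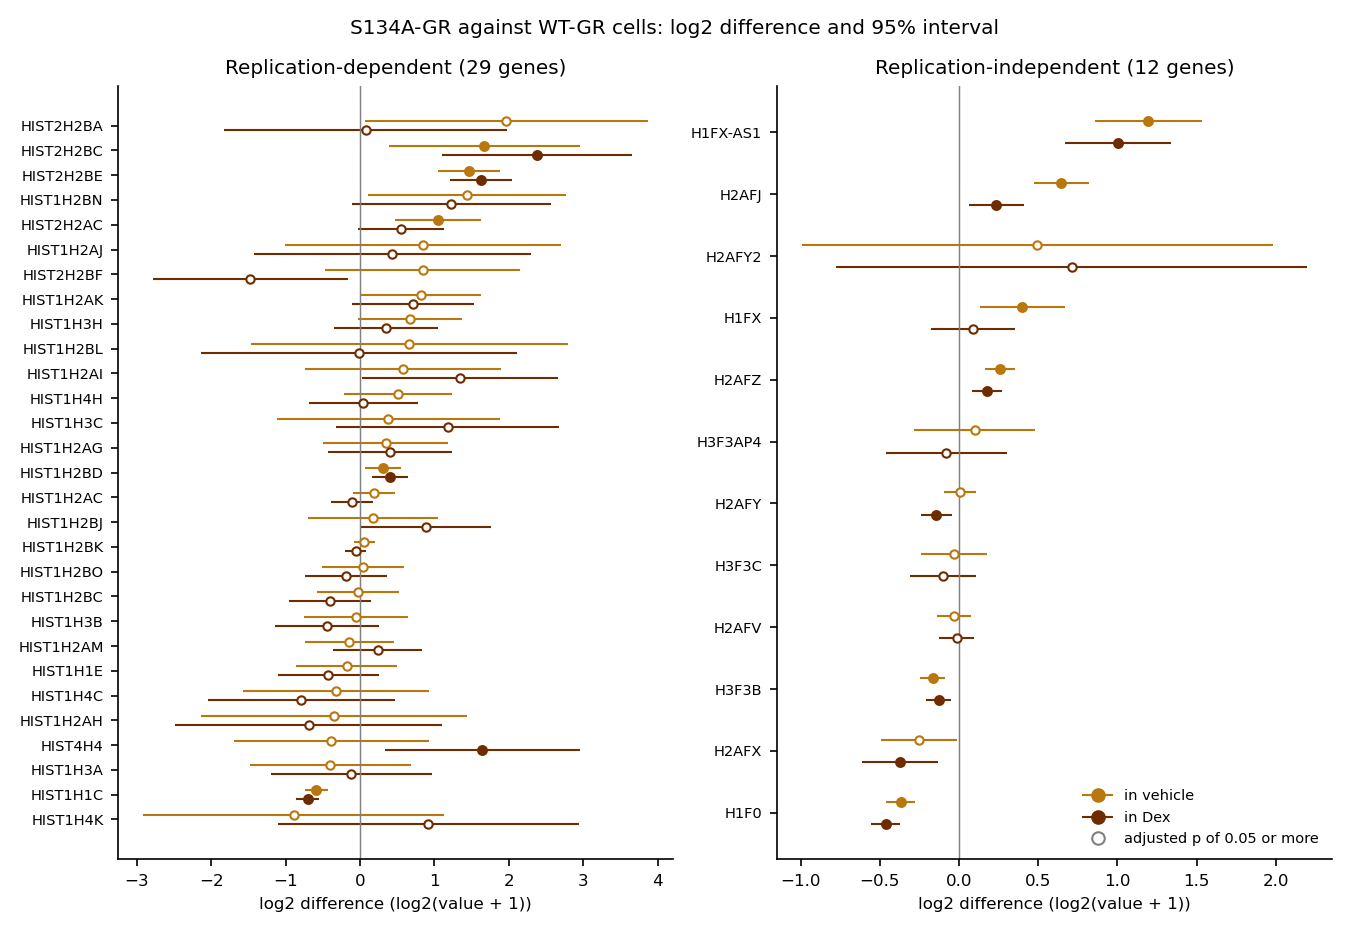
Log2 difference of S134A-GR against WT-GR cells (horizontal axis, log2(value + 1), 95% interval) for each member in vehicle and in Dex; filled points have an adjusted p under 0.05. HIST2H2BE (1.46 and 1.62) and H1FX-AS1 (1.20 and 1.00) lie far to the right and HIST1H1C (-0.59 and -0.70) to the left in both treatments.

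The summed level of the 23 low replication-dependent members gives the same data without the abundant genes. It ran from 502 to 587 in the 6 WT-GR libraries and from 663 to 728 in the 6 S134A-GR libraries, but nothing is read from this split: HIST2H2AC is part of the sum, as are HIST2H2BC, HIST1H2AJ and HIST1H2AK, which passed the filter through S134A-GR cells, and HIST1H2AH, HIST1H4C and HIST1H4K, which passed through WT-GR cells. By class, the H2B sum averaged 5462 ± 253 in WT-GR vehicle and 6084 ± 167 in S134A-GR vehicle libraries, and 5381 ± 453 and 5517 ± 43.2 in Dex, where the groups overlapped. It also holds HIST2H2BC, as well as HIST2H2BE and HIST1H2BD, which were called higher, so nothing is read from it either. The H1 sum averaged 3368 ± 356 and 2243 ± 84.0 in vehicle.

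The second question was the response to Dex. In WT-GR cells 4 of 41 members rose and 2 fell after 6 h, 14.6% against 27.9% of all genes (13.9% rose). By level, 4.3% of the 23 replication-dependent members averaging under 100 were called, and 33.3% of the 6 at 100 or more. Among replication-independent members the share was 25.0%. The groups did not overlap for 6 members above and 2 below, against 16.7% and 18.3% of all genes. H2AFJ rose 1.26-fold, from 4403, 4667 and 4975 to 6378, 6056 and 5343 (log2 0.34 ± 0.08, adjusted p = 0.00766), and its groups did not overlap. H1F0 rose from 30934, 31536 and 31863 to 37394, 35742 and 33837 (log2 0.18 ± 0.04, adjusted p = 0.0071), again with no overlap. H2AFY rose from 17306 ± 628 to 19544 ± 1104 (log2 0.17 ± 0.05, adjusted p = 0.0126), and HIST1H1C from 3331 ± 350 to 3832 ± 85.7 (log2 0.21 ± 0.07, adjusted p = 0.0457). Without WT-GR vehicle replicate 1 the H2AFY call was lost (log2 0.15, adjusted p = 0.0554), as was the HIST1H1C call (log2 0.16, adjusted p = 0.167). The HIST1H1C call was lost in 15 of 22 alternatives, the H2AFJ call in 0.

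Both falls were H2B genes with overlapping groups. HIST1H2BJ went from 63.5, 43.3 and 90.6 to 30.7, 46.9 and 12.2 (log2 -1.24 ± 0.41, adjusted p = 0.0369), and HIST2H2BE from 133.6, 113 and 146 to 118, 88.8 and 66.1 (log2 -0.55 ± 0.19, adjusted p = 0.0478). In both genes WT-GR Dex replicate 3 was the lowest library. Without WT-GR Dex replicates 2 and 3 the calls were lost, at log2 -1.01 (adjusted p = 0.0558) and -0.14 (adjusted p = 0.594). Of the 22 alternatives, 12 ended the HIST1H2BJ call and 16 the HIST2H2BE call. HIST1H2BK, at 4543 ± 188 and 4552 ± 463, gave a 95% interval of the log2 difference from -0.14 to 0.14.

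In S134A-GR cells none of the 41 members passed limma's test for Dex, whereas 15.7% of all genes did, and 1 member had an unadjusted p under 0.05. DESeq2 and edgeR called 0 as well. That member was HIST1H2AC, at 613, 662 and 660 in vehicle and 455, 557 and 537 in Dex, log2 -0.32 ± 0.13 (adjusted p = 0.126). Its groups did not overlap. Over the 41, 2 members lay wholly above and 5 wholly below their vehicle values, against 18.2% and 20.4% of all genes. H2AFJ differed by -0.07 (95% interval -0.25 to 0.10), H1F0 by 0.08 (-0.01 to 0.18), HIST1H1C by 0.10 (-0.06 to 0.25) and HIST2H2BE by -0.39 (-0.81 to 0.02).

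The Dex responses of the genotypes were then compared directly. None of the 41 members differed by limma against 0.414% of all genes, and 4 had an unadjusted p under 0.05; DESeq2 called 1 and edgeR 0. The gene DESeq2 called was H2AFJ, whose response was lower in S134A-GR cells by log2 -0.41 ± 0.11 in limma's fit (adjusted p = 0.139). The other 3 with a low unadjusted p were H2AFY (-0.15, adjusted p = 0.265), HIST2H2BF (-2.31, adjusted p = 0.219) and HIST4H4 (2.03, adjusted p = 0.258). Without WT-GR Dex replicates 2 and 3 the last pair stood at -1.27 (adjusted p = 0.378) and 0.75 (adjusted p = 0.528). Without WT-GR Dex replicate 3 limma called 2 members, H2AFJ and H2AFY. A Dex response called in WT-GR cells and not in S134A-GR cells is therefore not shown to differ between the lines by limma on all 12 libraries.

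**Figure D5:**
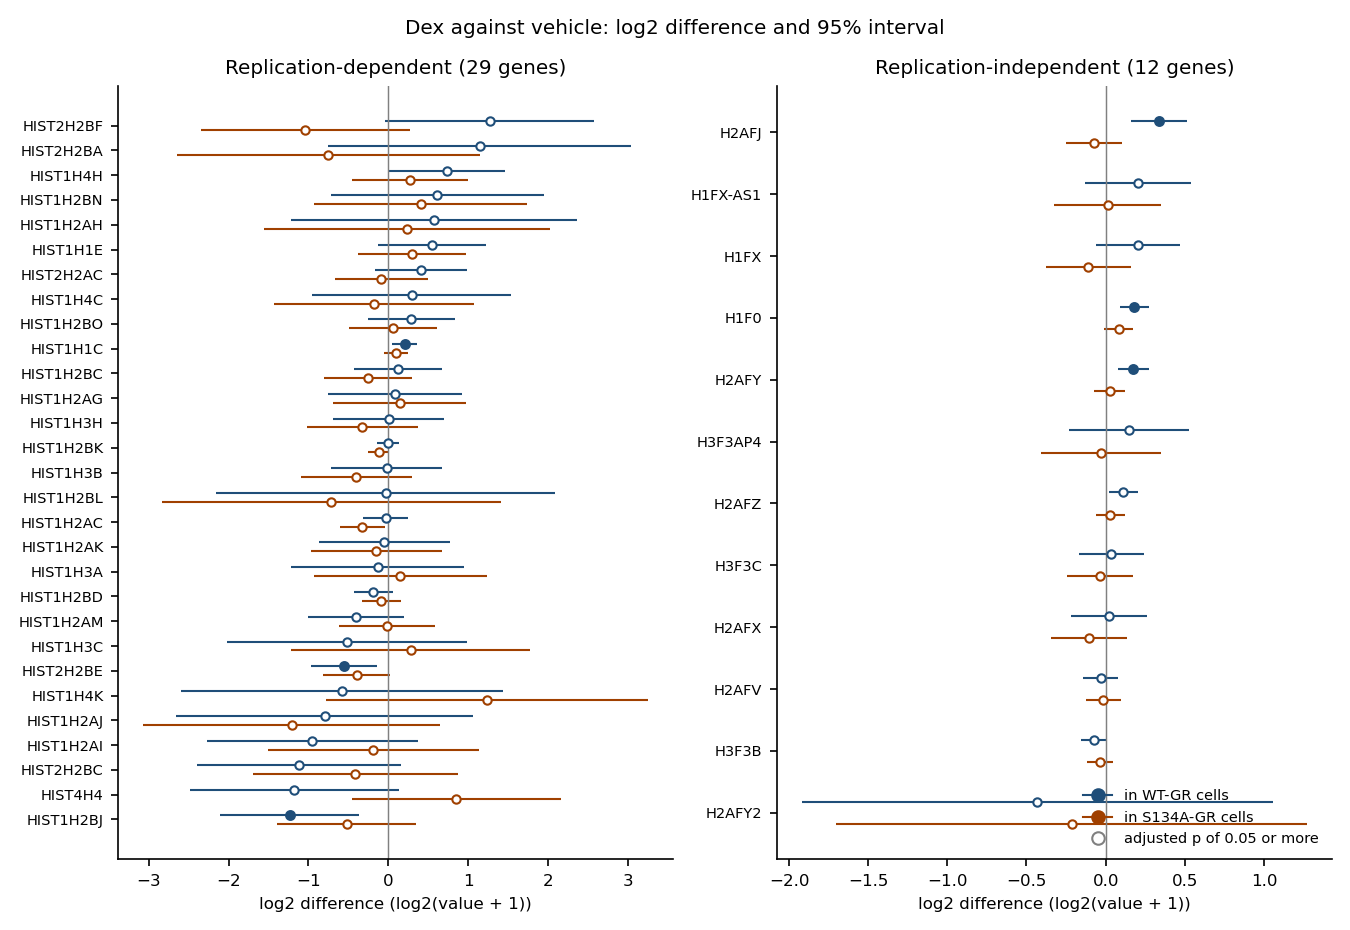
Log2 difference of Dex against vehicle (horizontal axis, log2(value + 1), 95% interval) for each member in WT-GR and S134A-GR cells; filled points have an adjusted p under 0.05. H2AFJ (0.34), HIST1H1C (0.21), H1F0 (0.18) and H2AFY (0.17) are filled in WT-GR cells, HIST1H2BJ (-1.24) and HIST2H2BE (-0.55) on the other side, and no point is filled in S134A-GR cells.

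Clustering of the 4 group means (log2(value + 1), centred per gene, average linkage on 1 minus Pearson's r, 2 clusters) did not separate the families. The first cluster held 10 replication-dependent and 7 replication-independent members, among them HIST1H1C, H1F0, H2AFX and H3F3B, and its centred means were -0.01 in WT-GR vehicle, 0.24 in WT-GR Dex, -0.09 with vehicle and -0.14 with Dex in S134A-GR cells. The second held 19 and 5, among them HIST2H2BE, HIST2H2AC, H2AFJ and H2AFZ, with -0.22, -0.42, 0.38 and 0.26. With 4 points per gene and many low members the clusters are a description.

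Genes of the histone supply pathway were read in the same fit, where 50.5% of all genes were called in vehicle and 49.7% in Dex. Of 34 tested genes for histone mRNA 3′ processing and decay, 6 were higher and 4 lower in S134A-GR vehicle cells, and 10 and 8 in Dex. SLBP, the stem-loop binding protein, averaged 8192 ± 559 in WT-GR and 8840 ± 232 in S134A-GR vehicle libraries (log2 0.11, adjusted p = 0.0811). CPSF3, a subunit of the polyadenylation complex that also cuts histone pre-mRNA, was lower by log2 -0.75 (adjusted p = 2.37e-07). CPSF1, another subunit of that complex, was higher by log2 0.86 (adjusted p = 1.78e-06). NPAT, the coactivator of histone gene transcription, measured 2733 ± 188 in WT-GR and 1654 ± 54.0 in S134A-GR vehicle libraries (log2 -0.72, adjusted p = 4.68e-06), and CASP8AP2 (FLASH), its partner at histone loci, was lower by -0.51 (adjusted p = 0.000201). Of 15 histone transcription genes 2 were higher and 8 lower in S134A-GR cells in each treatment. Of 34 histone chaperone and exchange genes, 5 were higher and 10 lower in vehicle.

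Of 27 DNA replication genes, 19 fell and 0 rose in WT-GR cells (median log2 -0.26), against 2239 of all 15957 genes that fell. CCNE2 (cyclin E2) fell by 1.07 (adjusted p = 2.43e-06) and CDC6, the licensing factor, by 0.57 (adjusted p = 1.08e-05). In S134A-GR cells 11 fell and 0 rose, against 7.76% of all genes that fell. PCNA, the polymerase clamp, fell by 0.32 in WT-GR cells (adjusted p = 0.00839) and differed by -0.14 in S134A-GR cells (adjusted p = 0.312). NPAT fell in WT-GR cells by 0.32 (adjusted p = 0.007), and differed by -0.04 in S134A-GR cells (adjusted p = 0.852). Compared directly by limma, the Dex responses differed for 0 of 15 histone transcription genes and 1 of 27 DNA replication genes, against 0.414% of all genes. A fall called in WT-GR cells and not in S134A-GR cells does not by itself show that the responses differ. Among histone chaperone genes 3 rose and 8 fell in WT-GR cells and 5 fell in S134A-GR cells. CHAF1B, a subunit of the replication-coupled assembly factor CAF-1, fell in both, by 0.37 (adjusted p = 5.22e-05) and 0.28 (adjusted p = 0.000699). The share of cells in S phase and the histone RNA per cell cannot be told apart in these bulk libraries.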

How the data were processed

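RNA-seq libraries came from a TruSeq RNA kit for mRNA, sequenced from both ends over 75 bases, per the labels' protocols. The deposited values are a signal per gene, namely reads scaled by a library's size factor; 100.0% of each library's values were whole multiples of 1 read's worth, within 0.01 reads. FastQC 0.11.7, featureCounts, Subread, DESeq2 1.22.2 and hg38 are named in the submitters' processing notes; the aligner, annotation and strand setting were not given in the sources used here. Even counts were over-represented (58.2 to 67.5% of counts from 1 to 20), so precision from counting alone would be overstated. Recovered depth was 56.4 to 100.6 M reads. The Dex files list 26485 names for 19907 values, and names were taken from the vehicle files by line (r with the vehicle mean 0.982 to 0.989, against -0.0056 to -0.0036 by deposited name).

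Values were tested as log2(value + 1) with limma 3.58.1 (R 4.3.3, mean-variance trend, 12 libraries, 1 coefficient per group, two-sided). Benjamini-Hochberg correction ran over 15957 genes with at least 10 in 3 libraries, at a threshold of 0.05. A run on simulated reads changed only better expressed genes, and by large folds. It does not bear on low members or small changes. Alternatives used edgeR 4.0.16 and DESeq2 1.42.0 on recovered reads. Sequences came from GENCODE 29 and RefSeq. Members and gene lists were chosen with earlier results of these data known. Genes named were the called members of largest change (up to 6 per direction), the highest member of each class, members next to the threshold, all replication-independent members, and, of the other lists, SLBP, NPAT, PCNA and some of the up to 3 called genes of largest change per comparison. HIST2H2BF, the Dex value of HIST1H2AC in S134A-GR cells, CHAF1B in WT-GR cells and the cell-type markers were chosen after their values were seen.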

Additional observations from a re-analysis of the deposited data

How the results depend on the processing

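Counts of called members were recomputed under 23 alternatives. In WT-GR cells the 6 Dex calls became 3 without a filter on low values, 1 with only the groups compared, 11 with library weights and 29 under the deposited Dex names, which pair different genes. The 0 calls for Dex in S134A-GR cells became 1, 5 and 29 with only the groups compared, library weights and deposited names. The 0 calls for the difference of responses became 1 with DESeq2, 4 with library weights, 2 without both WT-GR Dex replicates 2 and 3, and 7 with deposited names. For genotype, the 11 vehicle calls became 18 with library weights and 6 with deposited names; the other alternatives, in vehicle and for the 12 calls in Dex, stayed within 1.5 times. Leaving out 1 library gave 2 to 6 calls for Dex in WT-GR cells (2 without WT-GR vehicle replicate 1, and 3 without S134A-GR vehicle replicate 1 or 2), 0 for Dex in S134A-GR cells, 0 to 2 for the difference (2 without WT-GR Dex replicate 3), 8 to 12 for genotype in vehicle and 8 to 13 in Dex. Of 29 calls, 15 held under each alternative, other than the deposited names, in which they were tested, and 14 were lost in at least 1, and no call changed sign; HIST2H2BC and HIST4H4 were not tested with the filter at 50. Deposited names reversed H1F0 (-6.81), H2AFJ (-12.19), H2AFY (-9.36), HIST1H2BJ (8.05) and HIST2H2BE (0.80) for Dex in WT-GR cells, and H1F0 (0.77), H2AFX (0.51), H2AFY (0.41) and HIST4H4 (-0.11) for genotype in Dex. Replicate numbers did not pair the libraries: 18 same-numbered pairs correlated at -0.0852 to 0.0551 and 1 of 12 libraries correlated best with its own number. A replicate block gave 4, 0, 0, 11 and 11 calls in the order above and lost HIST1H1C and HIST1H2BJ for Dex in WT-GR cells and HIST4H4 for genotype in Dex; it changed no other call. Scaling by library size only moved the share of all calls that were higher from 49.7 to 32.4% for Dex in WT-GR cells, 47.2 to 59.6% for genotype in vehicle and 47.0 to 64.9% in Dex. Where a setting changed a call, the cause was not tested. At the present depth, intervals of several of the 23 members that average under 100 were wide.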
